A study of Mus musculus with 8 samples.

Results

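Natural killer (NK) cells of the mouse kidney were picked out of a single-cell RNA sequencing data set by 5 genes, Ncr1, Klrb1c, Klre1, Eomes and Gzma. A cell was taken as an NK cell when the summed count of these genes was at least 3 with at least 2 of them detected, and when the summed counts of T cell genes (Themis, Cd3e and Cd3g), of macrophage genes (C1qa, C1qb and C1qc), of B cell genes (Pax5, Bank1 and Ms4a1) and of endothelial and tubule genes (Flt1 and Slc12a1) were each at most 1. Cells also had to hold more than 300 genes, fewer than 20000 counts and less than 25% mitochondrial counts. Of 120281 barcodes 90855 passed these limits, 648 of them carried the NK genes, 90 were then removed by the other 4 sums, and 558 cells were left, which is 0.614% of the cells past the limits.

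Kidneys came from male C57BL/6 mice, whose age is not given in the sources used here. CTRL was the untouched kidney of control mice, which the labels call untreated. IRI_D1, IRI_D7 and IRI_D14 were left kidneys whose blood supply had been clamped at the pedicle and released (ischemia-reperfusion injury, IRI), taken on day 1, 7 or 14 from mice given the vehicle DMSO. E_IRI_D1, E_IRI_D7 and E_IRI_D14 were the same in mice given entospletinib, an inhibitor of the kinase SYK, before the injury and, for the later days, repeatedly thereafter. All injured mice kept the right kidney. Each of the 7 conditions was 1 pool of cells from 3 mice, sorted as live cells of leukocyte scatter, so no condition had a biological replicate and the mice of a pool could not be told apart. For this reason differences between pools are given with 95% intervals that cover counting error only, and no p-value was derived from cells. The spread over the 8 sublibraries into which the barcoded cells were divided is technical.

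NK cells are innate lymphocytes that kill stressed, infected or transformed cells without a rearranged antigen receptor. Their activity is set by the balance of inhibitory receptors, many of which bind MHC class I, and activating receptors that signal through adaptor proteins with immunoreceptor tyrosine-based activation motifs (ITAMs), which recruit the kinases SYK and ZAP-70. Once active, they release perforin and granzymes and secrete interferon gamma and chemokines. In mouse tissues a related group, type 1 innate lymphoid cells (ILC1), shares Ncr1 and Klrb1c with NK cells and is known for Itga1, Cxcr6 and Il7r and for little or no Eomes. The rule therefore can take in ILC1. In the GENCODE M21 annotation of GRCm38, the build the authors aligned to, Ncr1 lies at chr7:4337724-4345164 on the plus strand, Klrb1c at chr6:128778485-128789215 on the minus strand, Klre1 at chr6:129577905-129585827 on the plus strand, Eomes at chr9:118478212-118486132 on the plus strand, Gzma at chr13:113093825-113100981 on the minus strand and Syk at chr13:52583173-52648792 on the plus strand. Counts are per gene and do not tell exons from introns.

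The promoters of the rule's genes are shown because these genes define the cells and because RUNX factors are known regulators of NK cell genes. In the RefSeq promoter table (GRCm38.p6) all 5 genes were found, and the letters TGTGGT or their reverse complement ACCACA were looked for in the 250 bases before each start, on both strands. The letters were present for 4 of the 5 genes, Eomes being the exception, against 15.9% of all 27025 genes in the table with a match in any of their promoters, or 14% of its 32851 promoters. Letters of a T-box motif (GGTGTGA, in 3.84% of genes) and of a STAT motif (TTCNNNGAA, 8.13%) were in none of the 5, and those of an ETS motif (GGAAGT, 22.2%) in 1. The pair below comes from chr7:4337465-4337714 on the plus strand (Ncr1, the activating receptor NKp46) and from chr13:113100982-113101231 on the minus strand (Gzma, granzyme A). Both stretches lie just before the annotated gene, are written 5′ to 3′ in the direction of the gene, and have the matching letters in capitals.
Ncr1: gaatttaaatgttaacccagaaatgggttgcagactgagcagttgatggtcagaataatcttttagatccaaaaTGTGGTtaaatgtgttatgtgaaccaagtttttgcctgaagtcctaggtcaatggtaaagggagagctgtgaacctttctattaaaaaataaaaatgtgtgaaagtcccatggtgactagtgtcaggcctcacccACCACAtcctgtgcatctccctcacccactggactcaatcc
Gzma: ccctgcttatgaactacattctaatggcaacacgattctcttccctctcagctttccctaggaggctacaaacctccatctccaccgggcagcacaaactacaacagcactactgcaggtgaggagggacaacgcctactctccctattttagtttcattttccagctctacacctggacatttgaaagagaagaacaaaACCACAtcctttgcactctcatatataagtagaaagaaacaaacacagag
The matches began 176 and 41 bases before the start of Ncr1 and 50 bases before that of Gzma, and those of Klrb1c and Klre1 began 89 and 229 bases before theirs. These starts are those of the RefSeq table. For Klrb1c and Klre1 the stretch searched lies inside the gene as GENCODE annotates it. Among the 20 genes that stand out most in NK cells, described further on, 15 were in the table and 6 of these held the letters. A match of letters describes the sequence and does not show that a factor binds there.

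The pools differed in depth, which bears on every value that follows. NK cells had a median of 2522 counts in the control pool. At days 1, 7 and 14 the median was 2450, 2508 and 2019 with vehicle, and after entospletinib it was 1479, 1870 and 687. Values given as a set of 3 are in this order of days throughout. The entospletinib day 14 pool stood apart: its 41 NK cells held 34324 counts in all, only 10 of them had 1000 counts or more, and over all its cells the median was 933 against 2055 to 2928 in the other pools. Of 105340 combinations of well barcodes 13712 occurred in more than 1 sublibrary, and 1 of these concerned NK cells.

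The rule rests on few counts per cell. Of the 558 cells, 201 had 2 of the 5 genes detected, 228 had 3, 96 had 4 and 33 had all 5, and the median summed count was 5. Just inside the limit, 113 cells had a sum of 3 and a median of 1671 counts in all. Just outside it, 144 cells had a sum of 2 with 2 genes detected and a median of 1477.5 counts. The cells were thus chosen by the counts of the 5 genes and of the excluded genes, and the levels of the 5 genes are given as a description. Expressed as CPM, counts scaled to 1000000 NK counts of a pool, with gene length not taken into account, Ncr1 was 615 in control, 618 (day 1), 371 (day 7) and 442 (day 14) after vehicle, and 563, 752 and 932 after entospletinib. Klrb1c, which encodes the receptor NK1.1, was 371 in the untouched kidneys, 472, 278 and 326 in the vehicle series and 621, 558 and 1107 in the drug series. Klre1, a lectin-like receptor, was 380.1 in control, 454, 332 and 479 over the vehicle days, and 674, 437 and 1049 over the entospletinib days. Eomes, a T-box transcription factor, was 136 in control, 235 (day 1), 294 (day 7) and 269.5 (day 14) after vehicle, and 176, 150.4 and 466 after entospletinib. Gzma was 661 in the untouched kidneys, 1307, 587 and 625 in the vehicle series and 2075, 909 and 1457 in the drug series, and its highest value was that of the entospletinib day 1 pool. In the shallow day 14 pool a cell needed the same 3 counts out of far fewer, and there 4 of the 5 genes were at least 2-fold above vehicle.

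Several of the genes outside the rule that stood out in these cells are known from NK cells, and others have no name. The 20 genes with the highest ratio of CPM in NK cells to CPM in all other cells were led by the unnamed gene ENSMUSG00000121359 (315-fold) and included ENSMUSG00000121360, Gm28836 and Gm43647, the granule genes Prf1 (perforin, 176-fold) and Gzmb (granzyme B, 107-fold), Itga2 (the integrin CD49b, 109-fold), the lectin-like receptors Klra4, Klra8, Klrc1, Klrc2 and Klri2, the receptor kinase Styk1 and the protease gene Adamts14, and all 20 were above the other cells in 7 of 7 pools. Reads of the Klra and Klrc families, which lie side by side on chromosome 6 and have near-identical copies, may have been split between members, so their single values are uncertain. Prf1 was 222 in control, 339, 216 and 243 over the vehicle days, and 475, 308 and 175 over the entospletinib days, against 12.6 in cells that met the matching gate for T cells (n = 1041). Itga2 was 538 in control, 826 (day 1), 665 (day 7) and 460.4 (day 14) after vehicle, and 827, 666 and 728 after entospletinib, against 40.0 in T cells. Klra8, the activating receptor Ly49H, was 326 in the untouched kidneys, 544, 440.5 and 614 in the vehicle series and 481, 444 and 583 in the drug series, and no T cell count of it was found. These are features of the same cells that the rule picked and are not a test of it.

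Defining genes of T and B cells that the rule did not use were close to 0, while some other genes of the T cell list and genes of myeloid cells were not. The rule itself kept Themis, Cd3e and Cd3g, Pax5, Bank1 and Ms4a1, and C1qa, C1qb and C1qc low, so their low values are no finding. Over the 558 cells, Cd3d had 3 counts, Trac 4, Cd4 and Cd8a 1 each and Cd8b1 0, and of 17 T cell genes 10 had fewer than 10 counts. The other 7 were Lef1, at 214 CPM in NK cells and 424 in T cells, the T cell receptor constant genes Trbc1 (180.2 and 128), Trdc (36.2 and 6.29) and Trbc2 (34.6 and 148), and Camk4, Cd28 and Bcl11b, at 67.8, 51.6 and 50.8 in NK cells, and of these 7 Trbc1 and Trdc were higher in NK cells than in T cells. The B cell gene Cd79a had no count, as had the ILC3 genes Il22 and Il17a and the ILC2 genes Il13 and Il5, and the ILC2 receptor Il1rl1 had 1. The ILC lists as sums were not low in NK cells. The ILC3 list was at 617.5 CPM (26.6 in all other cells), of which Ncr1, a gene of the rule, gave 572, and the ILC2 list at 432 (341), of which Rora gave 285. Over the pools the summed level in NK cells lay between 587 and 774 CPM for the T cell list (5157 in T cells and 237 in all other cells), between 58.6 and 118 for 9 B cell genes (11781 in B cells) and between 334 and 940 for 8 macrophage genes, part of which the rule limits (9949 in cells of the macrophage gate). It lay between 72.4 and 1043 for 8 neutrophil genes, between 317 and 1506 for 8 monocyte genes and between 86.1 and 303 for 8 dendritic cell genes, with none of these genes at 0. Endothelial genes summed to 108 to 240 CPM, proximal tubule genes to 78.6 to 231 and stromal genes to 7.2 to 29.1, with the collagen gene Col1a1 and Dcn at 0, and 5 of 6 basophil and mast cell genes had no count.

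**Figure D1:**
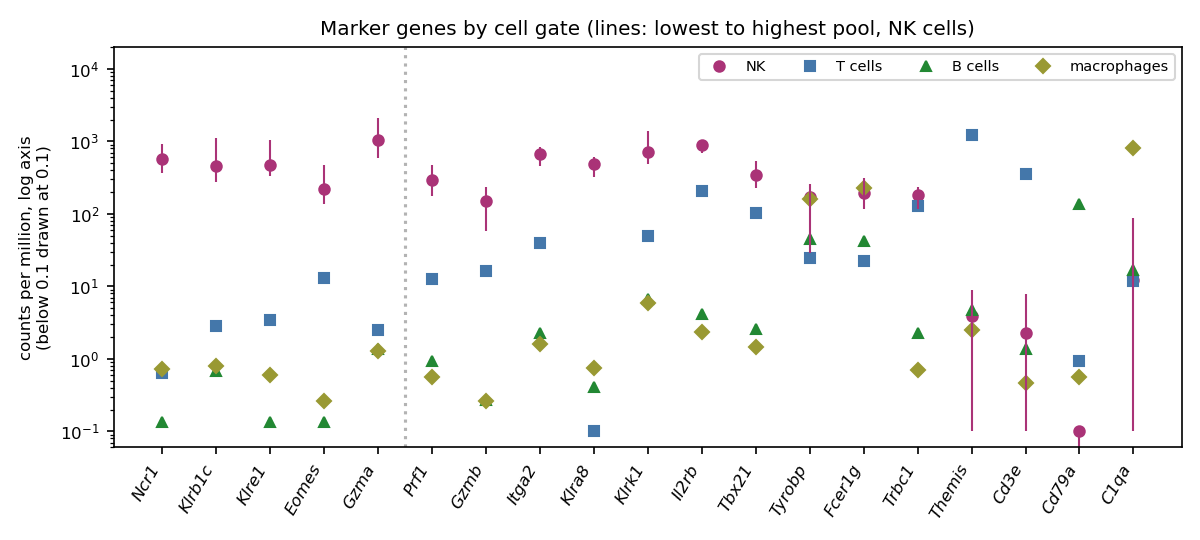
CPM (log axis, values below 0.1 drawn at 0.1) of 19 genes in NK cells and in cells of the T, B and macrophage gates, over all pools. Vertical lines run from the lowest to the highest of the 7 pools in NK cells, and genes left of the dotted line chose the NK cells. Prf1, Gzmb, Itga2 and Klra8 were higher in NK cells than in the other gates, while Cd79a, which the rule did not use, had no count in them. Cd3e and Themis were kept low by the rule.

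NK cells were a small share of the cells in every pool. They numbered 79 of 11205 cells past the limits in the control pool, which is 0.705% (exact binomial 95% interval 0.559 to 0.878). With vehicle they were 122 of 22489 cells at day 1 (0.542%, 0.451 to 0.647), 47 of 6110 at day 7 (0.769%, 0.566 to 1.02) and 105 of 17261 at day 14 (0.608%, 0.498 to 0.736). With entospletinib they were 101 of 14041 cells at day 1 (0.719%, 0.586 to 0.873), 63 of 7605 at day 7 (0.828%, 0.637 to 1.06) and 41 of 12144 at day 14 (0.338%, 0.242 to 0.458). The SD over sublibraries was between 0.0903 and 0.440 percentage points (n = 8). Intervals of the first 6 pools overlapped one another. That of the entospletinib day 14 pool lay below 5 of them and overlapped that of vehicle day 1.

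Compared with the control pool, the log2 ratio of the NK share was −0.38 (−0.80 to 0.049) at day 1, 0.13 (−0.43 to 0.66) at day 7 and −0.21 (−0.65 to 0.23) at day 14 of vehicle treatment, so each interval included no difference. The 3 comparisons share the control pool. When each cell was thinned to 1000 or 500 counts, with the limit on the NK genes lowered to a sum of 2, the day 1 value was 0.14 or 0.24 and the day 14 value 0.48 or 0.42. Set against vehicle of the same day, the NK share with entospletinib had a log2 ratio of 0.41 (0.012 to 0.80) at day 1, with the entospletinib share higher in 6 of 8 sublibraries, of 0.11 (−0.46 to 0.68) at day 7, and of −0.85 (−1.41 to −0.32) at day 14, where it was lower in 7 of 8. The day 14 value, a 1.80-fold lower share, depended on the depth to which cells were thinned. With the limit lowered to a sum of 2 in both settings, it was −1.39 at 1000 counts, where 11 cells of the entospletinib pool and 76 of the vehicle pool met the rule, and 0.24 (−0.41 to 0.88) at 500 counts, where 38 and 49 did. Over the 3 same-day pairs of pools the mean log2 ratio was −0.11 ± 0.66 (SD, n = 3; exact two-sided sign-flip permutation test, p = 1, where 0.25 is the smallest p that 3 pairs allow). A share of cells does not tell a change in NK cell number from one in the other cells.

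Set against the other lymphocytes, NK cells varied more between pools. T cells met their gate in 2.20% of control cells, in 0.516%, 0.835% and 2.29% after vehicle and in 0.278%, 1.21% and 0.823% after the drug. There were 0.320 NK cells per T cell in the control pool, 1.05, 0.922 and 0.265 after vehicle, and 2.59, 0.685 and 0.410 after the drug, so that both day 1 pools held the most NK cells per T cell. NK cells made up 10.7% of NK, T and B cells together in the control pool, 15.8%, 18.3% and 11.8% after vehicle, and 14.0%, 9.45% and 3.55% after the drug. Against vehicle the log2 ratio of this share was −0.18 (−0.57 to 0.22), −0.95 (−1.52 to −0.38) and −1.73 (−2.29 to −1.20) at days 1, 7 and 14, where 3, 7 and 8 of 8 sublibraries had the lower share with entospletinib and the day 1 interval included no difference, with a mean of −0.95 ± 0.78 (SD, n = 3; exact two-sided sign-flip permutation test, p = 0.25, the smallest possible). The B cell share stood beside it at 2.38%, 2.60% and 2.26% after vehicle and 4.15%, 6.73% and 8.34% after the drug.

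**Figure D2:**
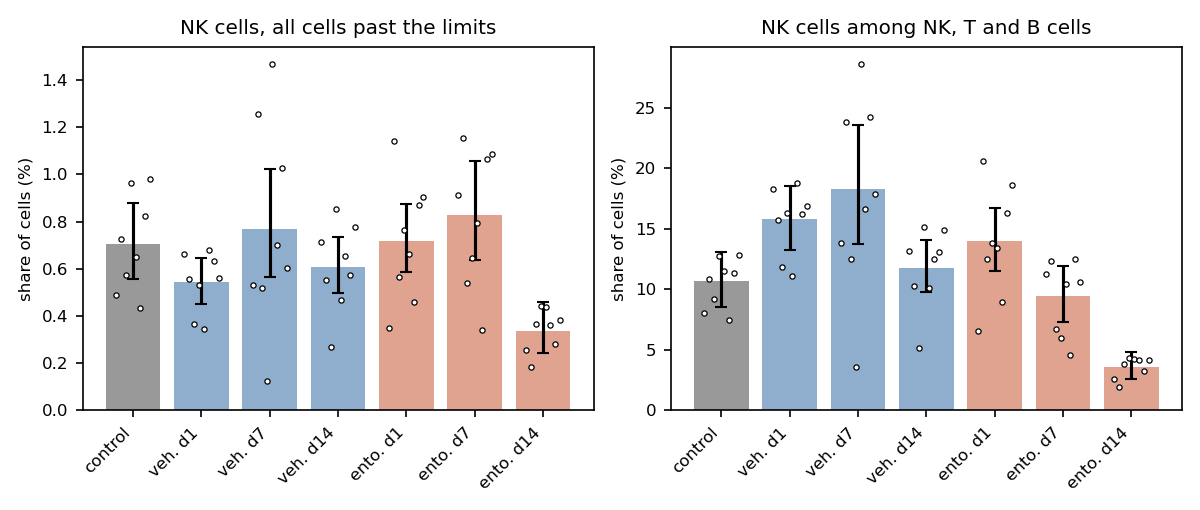
Left, NK cells as a percentage of all cells past the limits. Right, NK cells as a percentage of NK, T and B cells. Bars are pools (grey control, blue vehicle, red entospletinib, days 1, 7 and 14), error bars are exact binomial 95% intervals and dots are the 8 sublibraries. The entospletinib day 14 pool is lowest in both, at 0.338% and 3.55%, and is also the pool with the fewest counts per cell.

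Gene levels in NK cells were compared between pools from counts summed over the cells of a pool. A gene was compared when its level over both pools would give at least 10 counts in the pool with fewer NK counts, and ratios are relative log2 ratios, from which the median log2 ratio of all genes compared was subtracted. Those medians were 0.22, −0.15 and −0.042 for vehicle over control at days 1, 7 and 14 and −0.18, 0.25 and −0.0032 for entospletinib over vehicle. In bulk sums of this kind, more cells that express a gene and more RNA per cell cannot be told apart. With vehicle at day 1, 266 of 3826 genes compared were at least 2-fold higher than in control (6.95%) and 166 at least 2-fold lower (4.34%). At day 7 these were 113 (4.95%) and 105 (4.6%) of 2284, and at day 14 they were 212 (5.98%) and 122 (3.44%) of 3548. These shares describe how far 2 such pools lie apart and are the background for the gene lists, which were compiled for NK cell functions and other cell types.

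The genes of killing were higher as a sum 1 day after injury, in NK cells and in the other cells, but few passed 2-fold. Of 19 genes of the cytotoxic granule list 13 were compared at day 1 and 1 was past 2-fold higher, Lamp1, a granule membrane protein, at 2.17 (0.45 to 4.55), a share near the 6.95% of all genes. The list's summed level had a relative log2 ratio of 0.41 (0.25 to 0.57) with a median over its genes of 0.55. In CPM it was 2073 in control and 3205 at vehicle day 1 in NK cells, and 1069 and 2690 in all other cells, a larger difference there. Without sublibrary 3 the ratio of Lamp1 was 2.77. Gzmb was 104 in control, 232, 92.7 and 86.1 over the vehicle days, and 211, 150.4 and 58.3 over the entospletinib days, higher at day 1 with either treatment. Its ratio to control with vehicle was 0.93 (0.25 to 1.67) at day 1 and −0.02 and −0.23 at days 7 and 14. Prf1, the pore-forming protein, had a ratio of 0.39 (−0.10 to 0.91) at day 1, and Gzma, a gene of the rule, of 0.76 (0.49 to 1.04). At days 7 and 14 none of the 10 and 13 genes compared passed 2-fold, and the summed ratios were 0.07 (−0.16 to 0.29) and −0.10 (−0.29 to 0.08), with medians over the genes of −0.13 and −0.23.

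Genes that mark mature NK cells were higher as a sum on day 1. The list, which holds the integrin gene Itgam (CD11b) and the transcription factor gene Zeb2, had a summed ratio of 0.43 (0.27 to 0.60) at day 1 with 1 of 9 genes past 2-fold, and of −0.31 (−0.57 to −0.06) and −0.21 (−0.40 to −0.01) later. In all other cells the list was 1662 CPM in control and 3596 at vehicle day 1, against 1996 and 3134 in NK cells. Itgam was 176 in control, 466 (day 1), 155 (day 7) and 266 (day 14) after vehicle, and 428, 236 and 612 after entospletinib, with a ratio of 1.18 (0.67 to 1.73) at day 1, and monocytes and neutrophils also express it. Zeb2 was 606 in the untouched kidneys, 1111, 525 and 457 in the vehicle series and 961, 1146 and 699 in the drug series, with a ratio of 0.65 (0.37 to 0.95). Tbx21, which encodes T-bet, the factor that drives NK maturation with Eomes, was lower, at 407 in control, 291, 263 and 228 over the vehicle days, and 539, 394 and 349.6 over the entospletinib days, and its ratio was −0.70 (−1.13 to −0.27), −0.49 (−1.1 to 0.10) and −0.79 (−1.29 to −0.31).

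Neutrophil and monocyte genes were also higher in the NK cells at day 1, and their values stand beside these results. The 8 neutrophil genes summed to 72.4 in control, 835 (day 1), 85.0 (day 7) and 288 (day 14) after vehicle, and 1043, 136 and 146 after entospletinib, and with vehicle at day 1 all 5 that were compared were past 2-fold in the NK cells. S100a9, a calcium-binding protein of neutrophils, was 9.05 in the untouched kidneys, 264, 7.73 and 18.7 in the vehicle series and 381, 7.16 and 58.3 in the drug series, and Lyz2, lysozyme of myeloid cells, was 31.7 in control, 449, 23.2 and 78.6 over the vehicle days, and 76.2, 93.1 and 175 over the entospletinib days. Of the monocyte list 4 of 6 genes compared were past 2-fold at vehicle day 1 (F13a1, Fn1, Lyz2 and Vcan, the last with no count in control and 8.46-fold higher against a floor of 3 counts). In all other cells of the pools the neutrophil list was 231 CPM in control and 5491 at vehicle day 1, so it was far higher there as well. Of the 558 NK cells 199 had a count of a listed neutrophil or monocyte gene other than Ccr2 and Ly6c2, 65 of the 122 at vehicle day 1 and 22 of the 79 in control. Without these 199 cells the summed ratio at day 1 was 0.36 for the cytotoxic granule list and 0.41 for the mature NK list, and the ratio of Itgam was 0.97. When cells with a Ccr2 count were left out too, the values were 0.25, 0.28 and 0.02. Their part in the results was not tested.

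Immediate early genes as a list were higher in NK cells of every vehicle pool than of the control pool. This list, genes switched on within minutes by many stimuli, summed to 1937 in control, 3448 (day 1), 3192 (day 7) and 3508 (day 14) after vehicle, and 2849, 2764 and 2564 after entospletinib. Relative to control, 7 of 16 genes compared were past 2-fold higher at day 1 and 1 lower, 4 of 12 higher at day 7 and 8 of 17 higher at day 14, with none lower at those days, beside the percentages of all genes given above. The summed ratios were 0.61 (0.45 to 0.78), 0.87 (0.67 to 1.07) and 0.90 (0.73 to 1.07), with medians over the genes of 0.88, 0.74 and 0.94.

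Fos, a subunit of the factor AP-1, was 22.6 in the untouched kidneys, 187, 46.4 and 89.8 in the vehicle series and 99.7, 136 and 29.1 in the drug series, highest at vehicle day 1. Fosl2, another AP-1 subunit, was 136 in control, 324, 456 and 468 over the vehicle days, and 328, 193 and 233 over the entospletinib days, and all 3 vehicle pools were above control, with ratios of 1.03 (0.44 to 1.67), 1.89 (1.24 to 2.58) and 1.83 (1.24 to 2.45), the first being between 0.86 (without sublibrary 6) and 1.62 (without sublibrary 2). Nr4a2, an orphan nuclear receptor induced by receptor signalling, was 176 in control, 419 (day 1), 332 (day 7) and 412 (day 14) after vehicle, and 193, 215 and 87.4 after entospletinib, and the 3 vehicle pools were the highest of the 7. Nfkbia, the inhibitor of NF-kappaB, was 81.5 in the untouched kidneys, 276, 209 and 239.6 in the vehicle series and 246, 215 and 117 in the drug series, lowest in control, with ratios of 1.54 (0.80 to 2.36), 1.5 (0.59 to 2.45) and 1.60 (0.83 to 2.44), the second being 0.90 without sublibrary 5. Btg2, an antiproliferative factor, was 40.7 in control, 116, 147 and 127 over the vehicle days, and 129, 85.9 and 29.1 over the entospletinib days, and Zfp36, which destabilises cytokine mRNA, was 18.1 in control, 107 (day 1), 77.3 (day 7) and 71.1 (day 14) after vehicle, and 52.8, 85.9 and 58.3 after entospletinib. The control values of Fos and Zfp36 rest on 5 and 4 counts. Rgs1, a brake on chemokine receptor signalling, was the 1 member past 2-fold lower, at −1.02 (−1.61 to −0.44) on day 1, and −0.76 without sublibrary 6.

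The same genes were higher in the other cells of these pools, where the log2 ratio of vehicle over control was 1.68 at day 1 for Fos, 2.65 for Fosl2, 1.9 for Nr4a2 and 2.26 for Nfkbia. In T cells it was 0.51, 1.49, −0.54 and 1.41. Macrophage genes in the NK cells summed to 421 CPM in control and 940 at vehicle day 14, with a summed ratio of 1.20 (0.85 to 1.56) and 3 of 3 genes compared past 2-fold higher, and the neutrophil list had a summed ratio of 2.04 (1.25 to 2.91) on that day, and their part in the day 14 values was not tested. Without the 199 NK cells with myeloid counts the summed ratio of the list in NK cells was 0.42, 0.60 and 0.52 at days 1, 7 and 14. The control kidneys were not operated on, so injury and surgery cannot be told apart.

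A pair of activating receptors was lower after injury with vehicle. Cd226 (DNAM-1), which binds nectin-like ligands on target cells, was 738 in the untouched kidneys, 306, 224 and 258 in the vehicle series and 399, 759 and 87.4 in the drug series. Its relative log2 ratio to control was −1.49 (−1.86 to −1.12), −1.57 (−2.20 to −1.0) and −1.47 (−1.9 to −1.06) at days 1, 7 and 14 of vehicle treatment, and no interval of the 3 vehicle pools reached that of control. In T cells its log2 ratio was −0.62, −0.75 and −1.06. Slamf7 (CRACC), a receptor of the SLAM family that promotes killing, was 213 in control, 109.9, 38.6 and 89.8 over the vehicle days, and 93.8, 215 and 58.3 over the entospletinib days, with ratios of −1.17 (−1.83 to −0.52), −2.31 (−4.00 to −0.99) and −1.20 (−1.97 to −0.46). Of the list of activating receptors and adaptors, 3 of 15, 2 of 14 and 2 of 15 genes compared were past 2-fold lower at days 1, 7 and 14 and none higher. Of all genes compared, 4.34%, 4.6% and 3.44% were past 2-fold lower on these days. The third at day 1 was Ly9, a further SLAM receptor, at −1.19 (−2.31 to −0.10). Without sublibrary 8 the day 1 and day 14 ratios of Slamf7 were −0.81 and −0.98, and without sublibrary 5 that of Ly9 was −0.70, all within 2-fold. Klrk1 (NKG2D), the receptor for stress-induced ligands, was 837 in control, 728 (day 1), 649 (day 7) and 483 (day 14) after vehicle, and 739, 823 and 1369 after entospletinib, with ratios of −0.42 (−0.70 to −0.14), −0.22 (−0.61 to 0.16) and −0.75 (−1.09 to −0.42).

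Of the inhibitory receptors, 2 of 10, 3 of 7 and 1 of 8 compared were past 2-fold lower at days 1, 7 and 14 and 1 higher on each day. Over all genes compared, 4.34%, 4.6% and 3.44% were past 2-fold lower and 6.95%, 4.95% and 5.98% higher. Those at day 7 were Cd96, Klra3 and Klra9, which were lower, and Klra7, which was higher. Cd96, which competes with Cd226 for a ligand, was 127 in the untouched kidneys, 38.6, 38.6 and 116 in the vehicle series and 41.0, 115 and 175 in the drug series, and had ratios of −1.93 (−3.01 to −0.94) and −1.57 (−3.30 to −0.18) at days 1 and 7, the latter being −2.56 without sublibrary 1. Klrc1, which encodes the inhibitory receptor NKG2A, was 330.3 in control, 214, 216 and 202 over the vehicle days, and 258, 294 and 146 over the entospletinib days, with ratios of −0.85 (−1.34 to −0.36), −0.46 (−1.15 to 0.18) and −0.67 (−1.20 to −0.14).

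**Figure D3:**
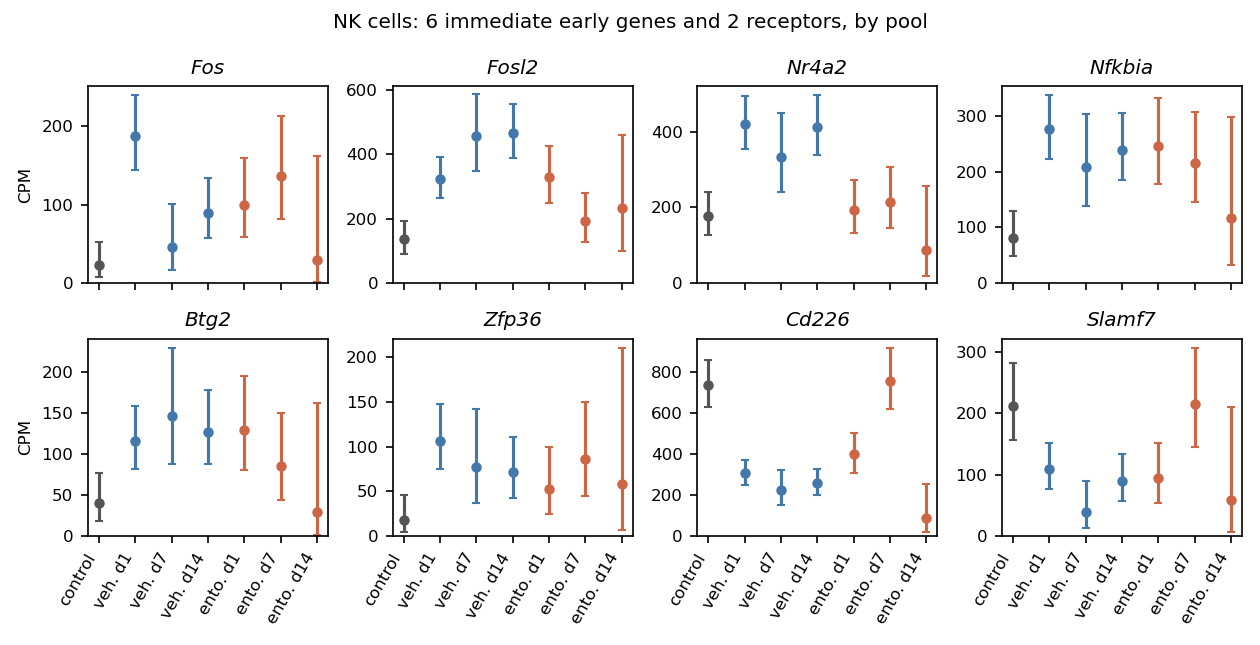
CPM in NK cells of 6 immediate early genes and of Cd226 and Slamf7, by pool (grey control, blue vehicle, red entospletinib). Points are the pooled value and bars the exact Poisson 95% interval of the counts. Fosl2, Nr4a2, Nfkbia, Btg2 and Zfp36 were lowest in control among control and vehicle pools, and Cd226 and Slamf7 were highest there.

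Genes of ILC1 and of tissue residency were lower as a sum 1 day after injury, in NK cells and in the other cells. Their summed level was 1991 in control, 1126 (day 1), 1530.1 (day 7) and 1505 (day 14) after vehicle, and 1219, 2313 and 1369 after entospletinib. In all other cells it was 1676 CPM in control and 660.2 at vehicle day 1. At vehicle day 1, 3 of 6 genes compared were past 2-fold lower (4.34% of all genes) and none higher, and the summed ratio was −1.04 (−1.24 to −0.84), and at days 7 and 14 it was −0.23 (−0.48 to 0.01) and −0.36 (−0.56 to −0.16). Itga1, the integrin CD49a that holds cells to collagen, was 213 in the untouched kidneys, 104, 124 and 116 in the vehicle series and 58.6, 379 and 29.1 in the drug series, with a ratio of −1.25 (−1.93 to −0.59) at day 1, and of −0.80 without sublibrary 2. Cd200r1, an inhibitory receptor found on ILC1, was 122 in control, 53.5, 0 and 29.9 over the vehicle days, and 58.6, 158 and 204 over the entospletinib days, with a ratio of −1.41 (−2.36 to −0.50). Rora, a nuclear receptor of innate lymphoid cells, was 407 in control, 223 (day 1), 247 (day 7) and 236 (day 14) after vehicle, and 358, 315 and 146 after entospletinib, with a ratio of −1.09 (−1.55 to −0.63), which was 0.23 without the cells with myeloid counts, Ccr2 included. Without sublibrary 1, 2 or 3 the ratio of Rora was −0.96, −0.95 or −0.99, within 2-fold. The summed ratio at day 1 was −0.69 without the 199 cells with myeloid counts, and turned to 0.23 when cells with a Ccr2 count were left out as well. This list's difference therefore depended on which cells were kept.

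With vehicle the chemokine gene Ccl5 was lower late after injury. Ccl5, which attracts T cells and monocytes, was 498 in the untouched kidneys, 858, 309 and 236 in the vehicle series and 1079, 523 and 728 in the drug series, with vehicle above control at day 1 and below it at days 7 and 14, and with entospletinib above it on each day. The vehicle ratios were 0.57 (0.25 to 0.90), −0.54 (−1.1 to −0.01) and −1.04 (−1.51 to −0.58). The cytokine and chemokine list as a whole had summed ratios of 0.11 (−0.11 to 0.33), −0.51 (−0.86 to −0.17) and −0.60 (−0.87 to −0.33), with medians over its genes of −0.24, −0.49 and −0.32, so sum and median differed in sign at day 1. Of its 4 genes compared at days 7 and 14, 1 was past 2-fold lower on each day and none higher, the chemokine gene Ccl4 at −1.35 (−2.91 to −0.06) on day 7, on 6 counts against 29 (−0.97 without sublibrary 8 and −2.17 without sublibrary 2), and Ccl5 on day 14, at between −0.99 and −0.92 without sublibrary 1, 2, 4 or 6. Ccl4 had −0.00 (−0.76 to 0.76) on day 14. Xcl1, which attracts type 1 conventional dendritic cells, was 267 in control, 267, 178 and 195 over the vehicle days, and 158, 93.1 and 146 over the entospletinib days, and Ifng, interferon gamma, was 99.6 in control, 68.3 (day 1), 77.3 (day 7) and 82.4 (day 14) after vehicle, and 11.7, 93.1 and 87.4 after entospletinib, in each case with intervals of the vehicle ratios that included no difference. The receptor genes Il2rb, Il12rb2 and Il18r1, which take up the signals of interleukins 2 and 15, 12 and 18, were within 2-fold of control in the 3 vehicle pools, between −0.58 for Il18r1 at day 14 and 0.58 for Il2rb at day 7. Beside the list counts of this paragraph stand the shares of all genes compared at days 1, 7 and 14 of vehicle treatment. These were 6.95%, 4.95% and 5.98% past 2-fold higher and 4.34%, 4.6% and 3.44% lower. Of 27 interferon response genes 9, 7 and 9 were compared and none passed 2-fold. Of 24 cytokine receptors and STATs, 0 of 14, 0 of 15 and 1 of 17 compared were past 2-fold higher and 1 was lower at each day, Il21r at days 1 and 7 and Il7r at day 14. Of the trafficking list 2 of 16, 0 of 14 and 2 of 17 were higher and 1, 0 and 1 lower. Cxcr4, the receptor that keeps NK cells in the bone marrow, was among the higher, at 1.40 (0.34 to 2.62) on day 1 and 1.12 (−0.04 to 2.42) on day 14, the latter being 0.57 without sublibrary 1 and −0.077, on 8 counts against 9, without the 199 cells with myeloid counts. Glucocorticoid response genes had 1 of 8, 0 of 7 and 0 of 8 higher and 1, 0 and 2 lower, with Zbtb16, the innate lymphoid factor PLZF, at 195 in the untouched kidneys, 71.3, 131 and 33.7 in the vehicle series and 64.5, 115 and 0 in the drug series. Zbtb16 had ratios of −1.67 (−2.45 to −0.92) and −2.49 (−3.71 to −1.43) at days 1 and 14, the latter being −3.08 without sublibrary 6.

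Few transcription factors passed 2-fold, none of 17 at day 1. At day 7, 2 of 15 were past 2-fold higher, Ikzf2 (Helios) at 1.28 (0.57 to 1.99), which was 0.60 without sublibrary 5, and Tcf7 (TCF-1, known from immature NK cells) at 1.13 (−0.05 to 2.32), which was 0.90 without sublibrary 8. At day 14 Tcf7 was again higher, at 1.46 (0.54 to 2.48), and Klf2, a factor of circulating lymphocytes, was lower, at −1.1 (−2.04 to −0.20), and at −0.79 without sublibrary 3. Top2a, a gene of dividing cells, was 131 in control, 8.91, 100.5 and 97.3 over the vehicle days, and 5.86, 14.3 and 0 over the entospletinib days, lower in the vehicle day 1 pool than in control at −4.10 (−6.46 to −2.41). The control value rests on 29 counts in 6 cells, and the ratio was −2.92 without sublibrary 4, which left 8 of these counts. In all other cells of those pools it was also lower, at 8.38 against 40.1 CPM.

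Over all genes compared, members of the lists included, the 5 highest and 5 lowest ratios were named among genes whose level over both pools together was at least as high in NK cells as in the other cells. A gene could pass this limit through the pool where it was high, as many of those named did (among them Abce1, Gigyf1, Copg2, Tmem65, Nol10, Por, Usp40, Dis3l2, Yeats2, Fhip2a, Snrk, Eya3 and Spcs2), so the naming favours genes that differ. At day 1 the highest were Sult2b1, Abce1, Gm41790, Gigyf1 and Tinf2. Sult2b1, a sulfotransferase, had 2.93 (0.94 to 6.05) on 27 counts against 2, and Abce1, a ribosome recycling factor, 2.76 (1.1 to 5.10) on 36 against 3. Without sublibrary 1 the ratio of Sult2b1 was 3.71, and without sublibrary 3 that of Abce1 was 3.35. The lowest after Top2a were Nebl, Cdk8, 5830417I10Rik and Gm15564. Nebl, a member of the nebulin family, had −2.83 (−3.83 to −1.93). Cdk8, a Mediator kinase, was lower in the other cells too, with 22101 CPM in control and 4102 at vehicle day 1 in NK cells, and 12456 and 4833 in the others.

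At day 7 the highest were Cemip2, Ccnb1ip1, Hivep1, Abcb1b and D5Ertd615e and the lowest Copg2, Slamf7, Spata6, Trip4 and Trim12a. Cemip2, a hyaluronidase, had 2.21 (1.39 to 3.09), and Abcb1b, a drug efflux pump, 2.13 (1.14 to 3.19), while Copg2, a coat protein of Golgi vesicles, had −2.84 (−5.95 to −0.84) on 2 counts against 27. Without sublibrary 2 the ratio of Abcb1b was 1.47, and without sublibrary 3 that of Copg2 was −3.67. Ccnb1ip1 was higher in the other cells too, at 425 against 101 CPM.

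At day 14 the highest were Myb, Tmem65, Nol10, Por and Gm19951 and the lowest Nebl, ENSMUSG00000120356, Gm36723, Trip4 and Cd200r1. Myb, a transcription factor of progenitors and activated lymphocytes, had 2.35 (1.19 to 3.75), on 42 counts against 7, and was higher in 8 of 8 sublibraries. Gm36723 was 1457 CPM in control and 341 at vehicle day 14, and Gm19951 was higher in all cells, at 9853 against 2453 CPM in NK cells and 8895 against 2382 in the others. A few further genes were chosen after their values were seen, and the comparisons share the control pool. Anxa2, a membrane-binding annexin, had ratios of 1.63, 1.21 and 1.51 at days 1, 7 and 14, Nup98, a nuclear pore protein, of 2.01, 2.18 and 1.64, Birc3, an inhibitor of apoptosis, of 1.51, 1.64 and 1.83, and Cd28, a costimulatory receptor, of −2.07, −1.46 and −1.47. Plxnc1, a semaphorin receptor, had 1.55, 1.35 and 1.30, and Ubl3, a ubiquitin-like protein, 1.27, 1.19 and 1.14, and both turned in sign on 1 or more days without cells with myeloid counts. Without sublibrary 4 the day 14 ratio of Plxnc1 was 0.38, and without sublibrary 6 the day 1 ratio of Cd28 was −2.79. The day 7 ratio of Cd28 was −2.06 without sublibrary 7 and that of Anxa2 0.95 without sublibrary 4, and the day 14 ratio of Ubl3 was 0.78 without sublibrary 2.

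Entospletinib was compared with vehicle of the same day. At day 1, 64 of 3288 genes compared were at least 2-fold higher with entospletinib (1.95%) and 148 at least 2-fold lower (4.5%). At day 7 these were 138 (5.67%) and 150 (6.17%) of 2432, and at day 14 they were 14 (3.23%) and 33 (7.62%) of 433, the number compared being limited by the shallow pool. The day 14 counts depended on the scaling. With TMM scaling, not centred on the median, the median log2 ratio over 644 genes was −0.37, and far more genes were lower, as given at the end. The percentages of this paragraph are the background for the list counts of entospletinib over vehicle that follow. Of the 433 genes compared at all 3 days, 0 were past 2-fold in 1 direction at every day.

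Transcripts of SYK and its partners were examined first, as the drug blocks the kinase and not its transcript. Syk in NK cells was 176 in control, 407 (day 1), 239.6 (day 7) and 251 (day 14) after vehicle, and 223, 329 and 58.3 after entospletinib, against 94.7 in T cells, 1512 in B cells and 476 in cells of the macrophage gate. It was higher at vehicle day 1 than in control, with a ratio of 0.99 (0.46 to 1.54), and lower with entospletinib than with vehicle at day 1, with −0.68 (−1.24 to −0.16), while at day 7 the ratio was 0.21 (−0.48 to 0.91). Neither day 1 value reached 2-fold. The day 1 ratio to vehicle was −0.36 without the 199 cells with myeloid counts and −0.36 when each cell was thinned to 500 counts. Zap70, the related kinase of T and NK cells, was 127 in the untouched kidneys, 119, 170.0 and 139 in the vehicle series and 87.9, 136 and 58.3 in the drug series, and its ratios lay between −0.57 and 0.57 with intervals that included no difference.

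The ITAM adaptors Cd247 (CD3 zeta), Fcer1g (Fc receptor gamma chain) and Tyrobp (DAP12) couple NK receptors to these kinases. Cd247 was 344 in control, 463, 363 and 326 over the vehicle days, and 305, 465 and 175 over the entospletinib days. Fcer1g was 186 in control, 249.5 (day 1), 116 (day 7) and 116 (day 14) after vehicle, and 311, 150.4 and 262 after entospletinib. Tyrobp was 127 in the untouched kidneys, 247, 108 and 97.3 in the vehicle series and 258, 208 and 29.1 in the drug series, and the day 1 pools of both treatments were the highest. Between entospletinib and vehicle their ratios at day 1 were −0.42 (−0.90 to 0.04), 0.50 (−0.02 to 1.01) and 0.25 (−0.31 to 0.79), each with an interval that included no difference, and at day 7 0.11 (−0.46 to 0.68), 0.12 (−0.90 to 1.18) and 0.69 (−0.28 to 1.72).

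Of 32 genes of SYK and ITAM signalling 25, 23 and 15 were compared at days 1, 7 and 14, and with entospletinib 0, 0 and 0 were past 2-fold higher and 0, 0 and 1 past 2-fold lower. The summed ratios were −0.12 (−0.20 to −0.05), −0.02 (−0.12 to 0.07) and −0.06 (−0.22 to 0.09), and the first of these was 0.025 without the 330 cells with a myeloid count, Ccr2 included and Ly6c2 not counted. The 1 lower gene was Vav3, an exchange factor downstream of SYK, at −1.47 (−3.12 to −0.20), and at −2.58 without sublibrary 4. Clnk, an adaptor of immunoreceptor signalling that is characteristic of NK cells here (825 CPM against 27.7 in T cells), was 959 in control, 739.6, 827 and 719 over the vehicle days, and 698, 1210.0 and 670.1 over the entospletinib days. With vehicle over control, 1 of 26, 0 of 24 and 2 of 26 genes of the list were past 2-fold higher, beside 6.95%, 4.95% and 5.98% of all genes. They were the SRC family kinase Fgr at days 1 and 14, at 1.98 (0.74 to 3.51) and 1.77 (0.44 to 3.35), and the exchange factor Vav2 at day 14, at 1.88 (0.57 to 3.46). Without sublibrary 2 the ratios of Fgr were 2.83 and 2.55, and without sublibrary 8 that at day 1 was 1.36. Fgr was 27.2 in control, 125 (day 1), 15.5 (day 7) and 89.8 (day 14) after vehicle, and 64.5, 107 and 29.1 after entospletinib, and is known from neutrophils and monocytes too.

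**Figure D4:**
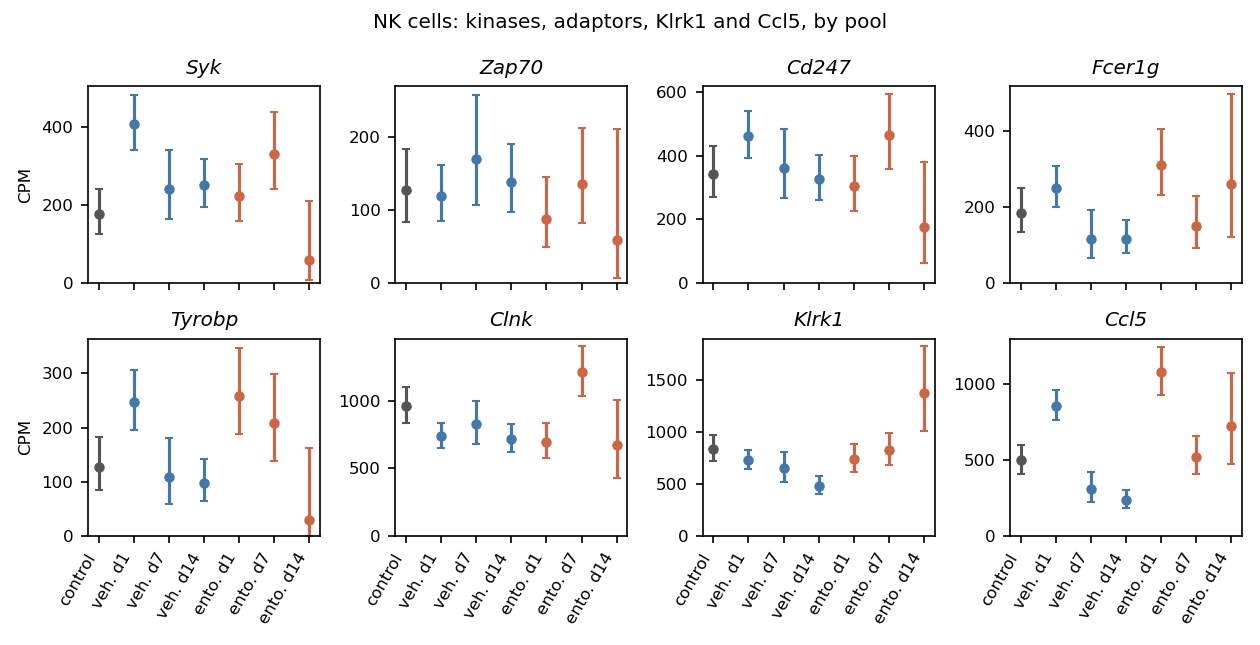
CPM in NK cells of Syk, Zap70, 3 ITAM adaptors (Cd247, Fcer1g and Tyrobp), Clnk, Klrk1 and Ccl5, by pool (grey control, blue vehicle, red entospletinib), with exact Poisson 95% intervals of the counts. Syk was highest at vehicle day 1, the adaptors overlapped between treatments at days 1 and 7, and the entospletinib day 14 intervals are the widest.

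At day 1 the mature NK list was higher as a sum with entospletinib than with vehicle, while the cytotoxic granule list was close. Prf1 had a ratio of 0.67 (0.24 to 1.1) and Gzmb of 0.05 (−0.56 to 0.64). Gzma had 0.85 (0.65 to 1.06), but as a gene of the rule it depends on which cells were admitted in each pool. The cytotoxic granule list had a summed ratio of 0.16 (0.01 to 0.31) with none of 11 genes past 2-fold, and the mature NK list of 0.37 (0.22 to 0.52) with 2 of 9 past 2-fold, Tbx21 at 1.07 (0.65 to 1.5) and Cx3cr1, the fractalkine receptor of mature NK cells, at 1.72 (0.83 to 2.65). Cx3cr1 is also among the genes by which the authors described resident macrophages, and the part of such cells in its ratio was not tested. In all other cells the log2 ratio of Tbx21 was 0.30. Tbx21 in the NK cells was thus 291 CPM with vehicle and 539 with entospletinib, and Ikzf2 was the other transcription factor past 2-fold, at 1.03 (0.38 to 1.67). Without sublibrary 2 the ratios of Tbx21 and Ikzf2 were 0.78 and 0.27, and that of Ikzf2 was −0.33 without the cells with myeloid counts, Ccr2 included. Il18r1 had 0.77 (0.49 to 1.05) and Ccl5 0.51 (0.24 to 0.79). Ccl4, a chemokine for monocytes and NK cells, was 131 in the untouched kidneys, 104, 46.4 and 127 in the vehicle series and 211, 122 and 29.1 in the drug series, with a ratio of 1.21 (0.49 to 1.92) at day 1. Ifng had 2 counts in this pool against 23 with vehicle, too few to be compared.

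Immediate early genes were close between treatments on day 1, with 0 of 17 past 2-fold and a summed ratio of −0.09 (−0.25 to 0.06) beside a median over the genes of 0.02, although Nr4a2 had −0.93 (−1.52 to −0.37). Monocyte genes in the NK cells were lower with entospletinib, 4 of 6 past 2-fold with a summed ratio of −1.52 (−1.88 to −1.17). Neutrophil genes had a summed ratio of 0.51 (0.23 to 0.78), with 1 of 6 past 2-fold higher and 1 lower, in the same direction as the mature NK list, and their part in it was not tested. Fn1, fibronectin, was 11.7 CPM with the drug and 288 without it on day 1, and Vcan, versican, was 5.86 and 134. In all other cells the log2 ratio of Fn1 was −1.9 and that of Vcan −1.77. The highest ratio by the naming rule was that of Peak1, a pseudokinase, which was 7362 CPM with entospletinib and 929.7 with vehicle in NK cells and 4265 and 390.3 in the other cells. Rpph1, Mgll, Prdm10 and Camk4 followed, and the lowest were Usp40, Dis3l2, Yeats2, Fhip2a and Cabcoco1. Dis3l2, an RNA exonuclease, had −2.18 (−3.68 to −0.98) and was lower in 8 of 8 sublibraries, with 35.2 CPM against 106 in the other cells of the entospletinib pool and 181 against 100.3 in those of the vehicle pool, and Camk4, a calcium-dependent kinase, had 1.61 (0.53 to 2.71). Mgll, a lipase, had 1.82 (0.79 to 2.90), which turned to −0.95 without the 199 cells with myeloid counts and to −1.60 without the 330 that include Ccr2, in each case on 3 counts against 10, and was 1.03 without sublibrary 1. The RNase P RNA gene Rpph1 was higher in the other cells too, at 166 against 22.3 CPM.

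At day 7, several receptors that were low with vehicle were at or above their control level with entospletinib. Cd226 had a ratio to vehicle of 1.51 (0.90 to 2.15) and its 759 CPM lay beside 738 in control. In T cells Cd226 was 765 CPM in control, 455 at vehicle day 7 and 708 at entospletinib day 7, and in all other cells 63.2, 19.2 and 36.3, so the same order was found there. Slamf7 had 2.22 (0.84 to 3.95), or 2.84 without sublibrary 2, with 215 CPM beside 213 in control, and in all other cells it was 123, 72.0 and 115 CPM in the same 3 pools. Itga1 had 1.37 (0.54 to 2.27), with 379 CPM beside 213. Cd200r1 had 22 counts with entospletinib and none with vehicle, which makes it at least 5.70-fold higher against a floor of 3 counts, while the lower 95% limit of its relative log2 ratio, from counting error, was 2.09. Of the inhibitory receptors 4 of 8 compared were past 2-fold higher and none lower, and the summed ratio was 0.62 (0.32 to 0.93). Beside Cd200r1 these were Cd96, at 1.32 (−0.20 to 3.12), Klra3, at 1.56 (0.09 to 3.34), and Klra9, at 1.60 (0.62 to 2.71). Without 1 sublibrary Cd96 was between 0.88 (sublibrary 6) and 2.44 (sublibrary 1) and Klra3 between 0.94 (sublibrary 5) and 2.70 (sublibrary 3), and Klra9 was 2.42 without sublibrary 3. The ILC1 and residency list had 2 of 5 past 2-fold higher and a summed ratio of 0.34 (0.08 to 0.61). These ratios share the vehicle day 7 pool of 47 cells with the comparison to control, so the low vehicle values enter both.

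Other genes were lower with entospletinib at day 7. Fosl2 had −1.49 (−2.20 to −0.81), and −0.996 without sublibrary 2, with a log2 ratio of −1.83 in all other cells. The immediate early list had 3 of 15 past 2-fold lower and 2 higher with a summed ratio of −0.46 (−0.66 to −0.26). The higher were Fos, at 1.30 (−0.08 to 2.91), and Jun, at 1.05 (−0.10 to 2.34), which was 0.62 without sublibrary 7, while Fos was between 0.99 (without sublibrary 4) and 1.96 (without sublibrary 5). Tcf7 had −1.46 (−3.00 to −0.08) and Xcl1 −1.19 (−2.29 to −0.14), both lower with entospletinib, and without 1 sublibrary Tcf7 reached −2.07 (sublibrary 1) and Xcl1 lay between −1.77 (sublibrary 7) and −0.84 (sublibrary 2). Eomes, whose level depends on the rule, had −1.22 (−2.06 to −0.41), between −1.83 (without sublibrary 5) and −0.85 (without sublibrary 6). The mature NK list was higher, with a summed ratio of 0.66 (0.41 to 0.92) and none of 6 genes past 2-fold, and Zeb2 had 0.87 (0.45 to 1.30). Fkbp5, a glucocorticoid-induced cochaperone, was 244 in control, 202, 116 and 131 over the vehicle days, and 188, 337 and 349.6 over the entospletinib days, and its ratio at day 7 was 1.29 (0.42 to 2.23) in NK cells, and 0.97 without sublibrary 5, with a log2 ratio of 1.41 in T cells and 1.39 in all other cells. By the naming rule Snrk, Eya3, Spcs2 and Slamf7 followed Cd200r1 at the top, and Ccnb1ip1, Rpph1, Atad2, Cmss1 and D5Ertd615e were lowest. Eya3, a phosphatase, had 2.64 (0.92 to 5.01), and Spcs2, a signal peptidase subunit, 2.44 (0.70 to 4.83). On 3 vehicle counts each, these were 3.96 without sublibrary 2 and 3.93 without sublibrary 3. Cmss1, at 8084 CPM with entospletinib and 31947 with vehicle, was lower in the other cells too, at 8262 against 30509.

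At day 14 few genes could be compared. Klrk1 had 1.51 (0.99 to 2.00), Il18r1 1.39 (0.81 to 1.94) and Ccl5 1.63 (0.90 to 2.32), all higher with entospletinib. In all other cells their log2 ratios were 0.42, 0.64 and 0.76, also higher. Pde7a, a phosphodiesterase, had 1.13 (0.47 to 1.74), and 0.89 without sublibrary 5. Vgll4, Nr4a2, Rn7sk, Wwox and Gm19951 were lowest, and Nr4a2 had −2.23 (−4.53 to −0.65), on 3 counts against 110. Ccnd3, cyclin D3, had 1.53 (1.08 to 1.95) and was also higher in the other cells, at 977 against 409.9 CPM. With each cell thinned to 500 counts the ratios of Klrk1 and Ccl5 were 0.86 and 2.16, and with 1000 counts, which left 10 entospletinib cells, 1.73 and 0.22.

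**Figure D5:**
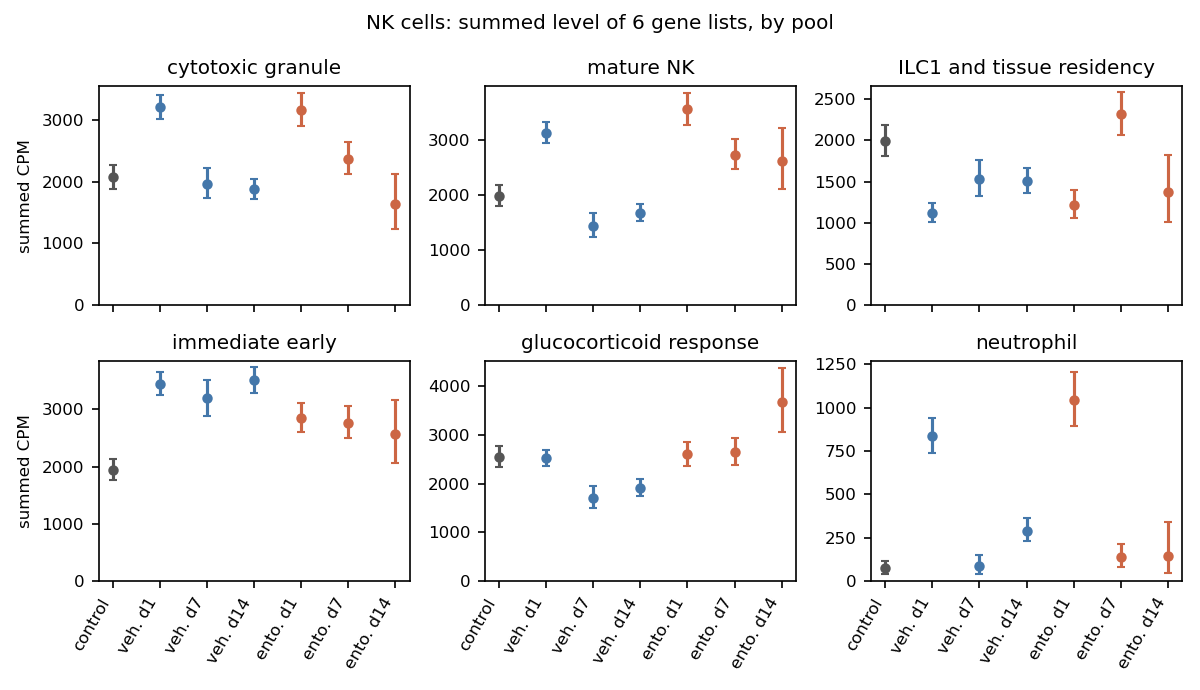
Summed CPM in NK cells of 6 gene lists, by pool (grey control, blue vehicle, red entospletinib), with exact Poisson 95% intervals. The immediate early list was lowest in control, at 1937 CPM, the ILC1 and tissue residency list was lowest at vehicle day 1, and the neutrophil list was highest in the day 1 pools of both treatments.

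NK cells, combined over the pools, differed among themselves in genes that the rule did not use. Of the 558 cells 116 had a count of Itga1, Cxcr6 or Il7r and 442 had none. The cells were split by these genes, so only other genes are compared, as a description. Those with such a count, at a median of 2667.5 counts in all against 1876, had 75.0 (49.0 to 109.8) CPM of Eomes against 273 (241 to 308). Gzma was 329 (271 to 395) against 1309 (1237 to 1384), Prf1 115 (82.4 to 157) against 363 (326 to 404), and Klra8 124 (89.7 to 167) against 627 (578 to 679.5), all lower. Inpp4b, a phosphoinositide phosphatase, was 1398 (1277 to 1528) against 313 (279 to 351) and Rora 502 (429.9 to 582) against 206 (178 to 237), both higher. Ncr1, which NK cells and ILC1 share, was 666 (583 to 758) against 538 (492 to 587). Eomes, Gzma and Ncr1 are genes of the rule, which sets a limit on their sum. A cell with few counts of some therefore had to hold more of the others, and nothing is read from the differences in these genes. Cells of all pools were combined, and the pools differed in the share of cells with such a count, as given next. Prf1 and Klra8 were higher and Rora lower in both day 1 pools than in control. The part of differences between pools was not tested.

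Cells with a count of Itga1, Cxcr6 or Il7r were 29 of 79 in the control pool, 16 of 122, 10 of 47 and 20 of 105 after vehicle, and 12 of 101, 23 of 63 and 6 of 41 after the drug. Thinned to 500 counts per cell, they were 13.9% in control, 4.10%, 10.6% and 7.62% after vehicle, and 4.95%, 11.1% and 10.3% after the drug, so the control pool was highest and both day 1 pools lowest. These percentages rest on few cells and are given without intervals, so the order of the pools is a description. The same measure in cells of the macrophage gate, which should lack these genes, was 0.94%.

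Itgam split the cells differently. The 210 cells with an Itgam count had 1229.6 (1138 to 1327) CPM of Zeb2 against 507 (458 to 560.5) in the 348 without, 1366 (1269 to 1468) of Gzma against 823 (760.1 to 890.2) and 407 (355 to 464) of Prf1 against 220.2 (188 to 256). Xcl1 was lower, at 118 (90.3 to 150.4) against 270.0 (234 to 309.5). Median depth was similar, 2043 and 2021.5 counts. Lyz2, a myeloid gene, was also higher in cells with Itgam, at 325 (278 to 377) against 52.4 (37.5 to 71.4), and its part in these differences was not tested. Cells of all pools were combined for this split. Itgam, Zeb2, Gzma and Prf1 were each higher in both day 1 pools than in control, while Xcl1 was not. The part of differences between pools was not tested either.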

How the data were processed

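Cells of mouse kidney were profiled with the Evercode WT kit as 8 sublibraries, each holding cells of all 7 conditions. The deposited matrix holds counts of molecules per gene and cell (57010 genes, 120281 barcodes), which the authors made with the Parse pipeline (version 1.1) on mm10, and the condition of a cell was read from the deposited cell metadata. No normalised value, authors' comparison or unused sample column (0) entered. Total counts of NK cells per pool ran from 34324 to 336673. Counts of NK cells were summed per pool and given as CPM, with exact Poisson (levels, ratios) or Clopper-Pearson (shares) 95% intervals, which cover counting error only. A gene compared needed 10 expected counts, and 2-fold after centring on the median was taken as a call. With 1 pool per condition there was no test across genes, and shares were compared over 3 same-day pairs by an exact sign-flip test. No doublet caller was run, and the exclusion sums stand in for one. The limits on cells were kept wide, and T, B and macrophage gates were built from counts like the NK rule.

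The cells, the 30 gene lists (377 genes, 1 of them not matched in the matrix) and the comparisons were chosen with earlier results of these data known. Genes named were the rule genes, high or 2-fold members of the lists, the 5 highest and 5 lowest ratios of each comparison (genes past 2-fold, at least as high in NK cells as in other cells, rule, mitochondrial and ribosomal protein genes left out) and the 20 genes with the highest NK ratio. Alternatives were other limits on cells, counts and markers, thinning to 1000 or 500 counts, TMM scaling (edgeR 4.0.16, R 4.3.3), a ribosomal limit, another denominator and leaving out each sublibrary. Those without cells with myeloid counts and the thinning to 500 counts were among the alternatives added after seeing the data. Scripts (Python 3.11.15, numpy 2.4.6, scipy 1.17.1, pandas 2.3.3) were tested on simulated data. A few list members are counted in their lists but not reported here by name.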

Additional observations from a re-analysis of the deposited data

Results flagged for a closer look

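The share of NK cells with entospletinib relative to vehicle lay on opposite sides of no difference at 2 days, with a log2 ratio of 0.41 at day 1 and −0.85 at day 14. The difference between the days was not tested. The day 14 pool with entospletinib was the shallowest, and the ratio there was −1.39 when cells were thinned to 1000 counts, 0.24 when thinned to 500, −1.76 with a marker sum of at least 5 and −1.58 with more than 500 genes per cell.

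Barcodes that failed the limits on genes, counts or mitochondrial counts were not part of the report. Among them 7 of 3850 of the entospletinib day 7 pool met the gene part of the rule, which is 0.182% (exact 95% interval 0.0731 to 0.374), and 8 of 5848 of the entospletinib day 14 pool, which is 0.137% (0.0591 to 0.269). In the control pool it was 0 of 9074, which allows up to 0.0406% by the same interval. No group of sublibraries held 1 that stood apart from the rest in its NK share.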

How the results depend on the processing

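No paired analysis by replicate number was possible because each condition is 1 pool and the labels give no such number, and the sign-flip tests paired pools by day only. The cause of the following shifts was not tested unless the setting removes cells or genes by construction. NK shares: thinned to 1000 and 500 counts the vehicle over control ratio was 0.14 and 0.24 at day 1 and 0.48 and 0.42 at day 14, and the entospletinib over vehicle ratio at day 14 was −1.39 and, reversed, 0.24. That day 14 ratio was −1.76 with a marker sum of at least 5 and −1.58 with more than 500 genes. Leaving out each sublibrary gave −0.98 to −0.76 there and 0.28 to 0.55 at day 1.

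Counts of genes at least 2-fold higher and lower follow in the order vehicle days 1, 7 and 14, then entospletinib days 1, 7 and 14. With at least 20 expected counts they were 100 and 59, 26 and 24, 79 and 40, 23 and 28, 27 and 40, and 4 and 5. With at least 10 counts over both pools they were 825 and 589, 451 and 588, 602 and 466, 460 and 669, 432 and 399, and 678 and 919. Thinned to 1000 counts they were 91 and 66, 18 and 41, 84 and 59, 63 (lower, entospletinib day 1), 46 and 46, and 2 and 4. Thinned to 500 counts they were 42 and 33, 11 and 17, 30 and 24, 31 and 30, 15 and 16, and 6 and 10. Without the 330 cells with a neutrophil or monocyte count (Ly6c2 not counted) they were 87 and 81, 56 and 54, 62 and 66, 97 (lower, entospletinib day 1), 69 and 73, and 9 and 17. Without the 199 cells with one other than Ly6c2 and Ccr2 the higher counts were 154 and 67 for vehicle days 1 and 7 and 91 for entospletinib day 7, and the lower count 76 for entospletinib day 1. With a marker sum of at least 5 the higher count was 53 for vehicle day 7, the lower 90 for entospletinib day 1, and they were 78 and 75, and 2 and 2, for entospletinib days 7 and 14. With exclusion sums at 0 the lower count for entospletinib day 1 was 93, and TMM scaling gave 7 and 102 for entospletinib day 14. Leaving out each sublibrary gave 8 to 15 higher there.

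Reversed ratios of single genes were Trip4 at vehicle day 1 (0.32, 500 counts), Ikzf2 at entospletinib day 1 (−0.011 with less than 1.5% ribosomal protein counts), and Plxnc1 at vehicle day 1 (−0.033) and day 14 (−0.0138), Ubl3 at vehicle day 7 (−0.73), Rora at vehicle day 1 (0.23), Cxcr4 at vehicle day 14 (−0.077), and Ikzf2 (−0.33) and Mgll (−1.60 and −0.95) at entospletinib day 1, these without cells with myeloid counts, and Gzma (−0.50) and Itgam (−1.25) at entospletinib day 14 (1000 counts). Reversed list sums at 1000 counts for entospletinib day 14 were immediate early (0.11) and mature NK (−1.76), and at 500 counts for vehicle day 1 glucocorticoid response (0.20). Without cells with myeloid counts the ILC1 and tissue residency sum was 0.23 at vehicle day 1 and −0.25 at entospletinib day 1, where SYK and ITAM signalling was 0.025, inhibitory receptors −0.076 and cytokines and chemokines −0.25. Of all ratios of single genes tried under alternatives 3343 stayed within the counting interval, 179 moved beyond it and 12 reversed. A turn in sign was counted as reversed only where the main ratio was at least 2-fold in size.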
